A study of Mus musculus with 8 samples.

Results

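The Igkv segments are the variable segments of the mouse immunoglobulin kappa light chain locus. They were taken as all genes of GENCODE M21 (mouse build GRCm38, the same as mm10) whose symbol starts with Igkv on chromosome 6, which gave 160 of the 53843 annotated genes on the autosomes and X. Of these, 100 are annotated as genes (IG_V_gene) and 60 as pseudogenes (IG_V_pseudogene), and they lie between 18.7 and 3167 kb from Igkj1, the first joining segment. Each was read over its gene body with 500 bp on either side, and 127 (77 genes and 50 pseudogenes) had at least 3 CpGs listed in every file and could be tested. The other 33 had under 3 such CpGs (4 had none, 13 had 1 and 16 had 2). The 16 with 2 CpGs had median levels of 58.8% and 66.1% in B cells and 84.6% and 78.5% in T cells.

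Methylation came from whole genome oxidative bisulfite sequencing (WGoxBS), a method in which oxidation before the bisulfite step leaves 5-methylcytosine as the modified base read as C. The cells were CD43- B cells and naive CD4+ T cells from the spleens of C57BL/6J mice aged 6 to 8 weeks, with the cells of several mice pooled in each sample and with no genetic change or treatment in any group. There were 8 samples in 4 groups of 2 (B and T cells of each sex), but a group's samples share 1 file, so 4 libraries were compared and no spread within a group could be had. The T cells were sorted as CD62L high, CD44 low and CD25-. Values below are given in the order B cells of females, B cells of males, T cells of females and T cells of males. With 2 libraries against 2, an exact two-sided permutation test of a single value cannot go below p = 0.333, so the tests come from models fitted across all gene windows.

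Each kappa light chain is made by joining 1 variable segment to 1 joining segment, which is cut at recombination signal sequences that follow the variable segment and precede the joining segment. A joining segment lies ahead of the constant gene Igkc, and a promoter ahead of each variable segment drives the joined gene. Variable segments that point the same way as the joining segments join by deleting the DNA in between, while those that point the other way join by inverting it. Mature B cells carry such joined alleles, whereas T cells join their receptor genes instead.

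The sequence ahead of the 5 segments with the largest B minus T difference is shown first, because CpGs near the segment ends are described below. The 180 bases before the annotated start are given 5′ to 3′ on the segment's strand, with each CG and each exact match to the octamer ATTTGCAT (either strand) in capitals. Igkv14-111, chosen after its values were seen, is added for its 2 CpGs there. Igkv2-137 is added as the segment farthest from Igkj1. Igkv11-114, Igkv4-81 and Igkv2-137 have no CG in these 180 bases.
Igkv19-93, chr6:68736781-68736960, minus strand: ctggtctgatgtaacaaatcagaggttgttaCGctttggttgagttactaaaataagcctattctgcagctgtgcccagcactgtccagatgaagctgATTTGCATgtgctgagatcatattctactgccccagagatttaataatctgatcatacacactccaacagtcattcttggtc
Igkv11-114, chr6:68164277-68164456, plus strand: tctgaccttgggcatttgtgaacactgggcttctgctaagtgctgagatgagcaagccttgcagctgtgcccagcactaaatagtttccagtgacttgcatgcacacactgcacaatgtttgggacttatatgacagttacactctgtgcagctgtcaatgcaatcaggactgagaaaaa
Igkv11-125, chr6:67913393-67913572, plus strand: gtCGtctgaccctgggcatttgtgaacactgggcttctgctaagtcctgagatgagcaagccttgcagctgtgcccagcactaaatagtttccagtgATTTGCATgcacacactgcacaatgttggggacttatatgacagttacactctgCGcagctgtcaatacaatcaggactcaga
Igkv14-126, chr6:67895992-67896171, plus strand: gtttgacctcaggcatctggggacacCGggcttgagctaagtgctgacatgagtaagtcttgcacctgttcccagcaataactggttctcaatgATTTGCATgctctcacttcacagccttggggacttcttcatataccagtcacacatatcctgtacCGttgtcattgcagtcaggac
Igkv4-81, chr6:68991295-68991474, minus strand: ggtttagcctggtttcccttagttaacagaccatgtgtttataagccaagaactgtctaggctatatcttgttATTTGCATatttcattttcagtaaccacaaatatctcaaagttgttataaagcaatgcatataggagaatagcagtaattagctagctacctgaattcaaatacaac
Igkv14-111, chr6:68256209-68256388, plus strand: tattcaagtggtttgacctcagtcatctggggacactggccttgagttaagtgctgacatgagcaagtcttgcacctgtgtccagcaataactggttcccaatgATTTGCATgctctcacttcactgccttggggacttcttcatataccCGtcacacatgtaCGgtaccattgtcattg
Igkv2-137, chr6:67555317-67555496, plus strand: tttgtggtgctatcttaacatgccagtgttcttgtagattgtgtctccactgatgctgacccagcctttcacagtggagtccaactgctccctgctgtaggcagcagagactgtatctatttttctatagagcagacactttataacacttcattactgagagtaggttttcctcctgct

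The 28 bases that follow the end of a segment hold its recombination signal. The capitals mark the places of the heptamer (the first 7 bases) and of the nonamer (9 bases, after a spacer of 12 bases).
Igkv19-93, chr6:68736269-68736296, minus strand: CACAGTGatacaaatcataACAAAAACC
Igkv11-114, chr6:68164924-68164951, plus strand: CACAATGatacaagtaataACATAAACC
Igkv11-125, chr6:67914053-67914080, plus strand: CACAGTGatacaagtcataACATAAACC
Igkv14-126, chr6:67896643-67896670, plus strand: CACGTTGatacaagtaataACATAAACC
Igkv4-81, chr6:68990730-68990757, minus strand: CACAGTGatacaggctggaACAAAAACC
Igkv2-137, chr6:67556217-67556244, plus strand: CACAGTGatacagccctgaACAAAAACC

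The octamer is the element of immunoglobulin promoters that POU-domain factors bind. It was found on the segment's strand within 250 bp of the start of 72 of the 100 Igkv genes and 21 of the 60 Igkv pseudogenes, against 0.955% of all annotated genes. On the other strand it was found at 2 Igkv genes that also held it on their own strand, no Igkv pseudogene and 1.08% of all annotated genes. The exact heptamer CACAGTG filled the 7 bases after the end of 84 of the 100 Igkv genes and 22 of the 60 pseudogenes (0.648% of all annotated genes), and the exact nonamer ACAAAAACC stood 12 bases further on in 32 genes and 5 pseudogenes (0.0836% of all annotated genes). Neither the heptamer nor the nonamer was sought on the other strand or at another offset, and the 3 motifs were sought in places that do not overlap. Among the sequences above, the octamer began at position -82 in Igkv19-93, -86 in Igkv14-126, -76 in Igkv14-111, -83 in Igkv11-125 and -107 in Igkv4-81, where -1 is the last base before the start. No exact match lay in the 250 bases before Igkv11-114 or Igkv2-137. Near matches, such as the acttgcat before Igkv11-114, were not counted.

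The labelled cell types matched their markers. Within 1 kb of the gene start, the level (methylated reads as a percentage of all reads) of Cd79a, Cd79b and Ms4a1, which B cells use, lay between 8.36% and 13.8% in the B cell libraries and between 37.9% and 95.2% in the T cell libraries. The level of Cd3d, Cd3e and Cd3g, subunits of the T cell receptor complex, lay between 84.9% and 94.9% in the B cell libraries and between 1.23% and 2.76% in the T cell libraries. Depth was lowest in male B cells, the median listed autosomal CpG having 17, 14, 17 and 16 reads. The Igkv windows are poor in CpGs, with a median of 5 per tested segment (3 to 30) against 57 per tested gene window of the genome. Summed over its CpGs, the median tested segment had 66, 57, 74 and 73 reads.

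Methylation was lower in B cells than in T cells at 26 of the 127 tested Igkv segments and higher at none. A segment was called at an adjusted p under 0.05 (edgeR quasi-likelihood test on methylated and unmethylated reads, Benjamini-Hochberg over all 51600 gene windows tested) and a difference between the means of the B and T cell libraries of at least 20 percentage points. Over all windows, 0.357% were called lower in B cells and 1.54% higher. These shares are not matched for size, since the median window of all genes holds 57 CpGs against 5 here. A fit of the 23630 windows with a gene body of at most 3000 bp called the same 26 segments, but its share over all those windows is not given. Without the call rule, 44 segments were lower and 4 higher in B cells at an unadjusted p under 0.05 in edgeR. The share of all windows at an unadjusted p is not given, here or below, so such counts have no background. The 26 segments were lower in B cells in both sexes, and 22 of them were genes and 4 pseudogenes. A copy of at least 95% identity elsewhere in the genome exists for 9 of them and for 45 of the 127, where reads could be placed at the wrong copy. With limma, which called no window of any gene, none of the 127 was called either way (smallest adjusted p = 0.082), though 45 were lower and 13 higher at an unadjusted p under 0.05. Refitting without each library in turn gave between 14 calls (without female T cells, 12 of them among the 26) and 21 (without male B cells, 20 among the 26), with 17 without male T cells, and 9 of the 26 segments were called each time.

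Igkv19-93 (ENSMUSG00000098814.2, chr6:68736297-68736780, minus strand, 1986 kb from Igkj1) differed most. Its 3 CpGs were methylated in 0% of 32 reads in female B cells, which allows a level of up to 9.38%, in 7.41% of 54 reads in male B cells (95% Wilson interval 2.92% to 17.6%), in 91.1% of 45 reads in female T cells (79.3% to 96.5%) and in 91.7% of 48 reads in male T cells (80.4% to 96.7%). The B and T cell libraries thus stood far apart, with a difference of -87.7 points (edgeR, adjusted p = 1.9e-08). A read that covers several CpGs is counted at each, so reads summed over CpGs are not independent molecules. Intervals and limits of this kind cover counting error only, and they are too narrow where several CpGs are summed. Averaged over the 4 libraries the level of Igkv19-93 was the second lowest of the tested segments.

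Igkv11-125 (chr6:67913573-67914052, plus strand) and the pseudogene Igkv11-114 (chr6:68164457-68164923, plus strand) lie 2809 and 2558 kb from Igkj1. Igkv11-125 had levels of 20.3% and 27.6% in the B cell libraries and 84.2% and 81.6% in the T cell libraries, a difference of -59.0 points (edgeR, adjusted p = 1.7e-08). Igkv11-114 had levels of 19.6% and 32.9% in B cells and 89.0% and 84.9% in T cells, a difference of -60.8 points (edgeR, adjusted p = 8.5e-08). The B cell libraries of both segments stood well below the T cell libraries, whereas the median pseudogene was at 89.6% and 88.4% in B cells and 86.7% and 85.6% in T cells. Igkv11-114 has a copy elsewhere in the genome at 95.5% identity, so that some of its reads could belong to that copy.

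Igkv14-126 (chr6:67896172-67896642, plus strand, 2826 kb from Igkj1) had levels of 32.2% and 28.6% in B cells and 77.3% and 86.9% in T cells, a difference of -51.7 points (edgeR, adjusted p = 5.9e-08). Igkv4-81 (chr6:68990758-68991294, minus strand, 1732 kb from Igkj1), a member of the largest family, had levels of 40.4% and 36.2% in B cells and 88.1% and 89.7% in T cells, a difference of -50.6 points (edgeR, adjusted p = 6.1e-06). In each of these 5 segments the B cell libraries were below both T cell libraries. The other 21 called segments had differences between -46.9 and -21.2 points.

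The CpGs of a single segment did not all fall. In Igkv14-126, the CpG at position -154 was at 0% and 5% in B cells against 94.4% and 100% in T cells, and the CpG at position -21 was at 8.33% and 0% against 87.5% and 83.3%. In the middle of the gene body, 224 bases from the first base of the segment, the CpG was at 90.9% and 93.8% in B cells and 93.8% and 100% in T cells. Past the end the level was low in B cells again. The third base after the end, inside the heptamer printed above, begins a CpG that was at 8.70% and 0% in B cells and 43.5% and 50% in T cells. At position 54 after the end the levels were 4.35% and 0% against 89.5% and 83.3%. The values at these 5 CpGs rest on 11 to 24 reads each, and the 0% levels allow between 14.3% and 27.3%.

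**Figure D1:**
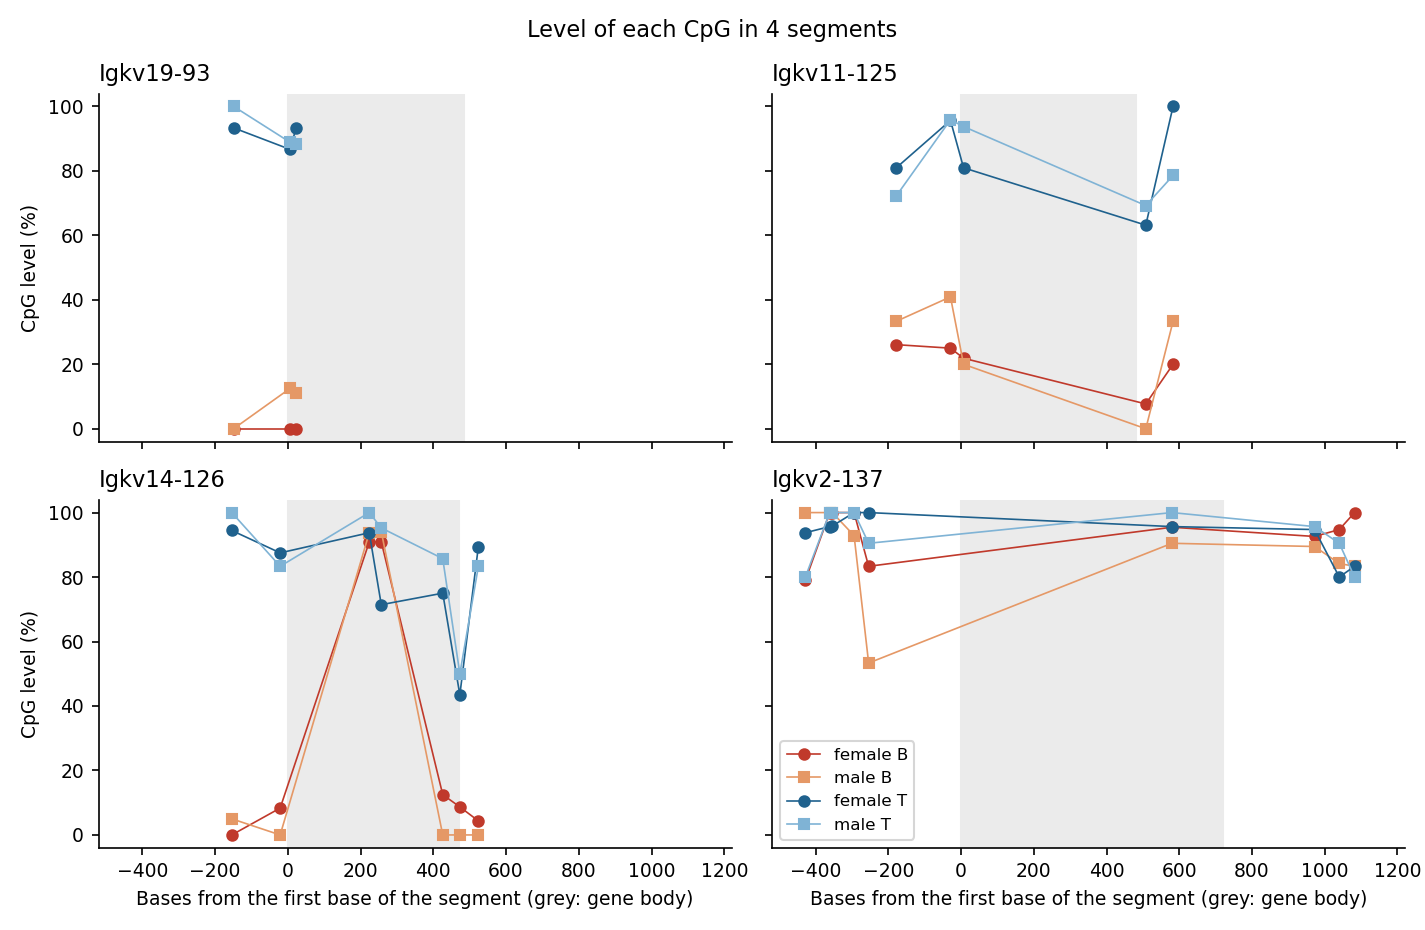
Level (%) of each CpG listed in all 4 libraries, by bases from the first base of the segment (grey: gene body), for Igkv19-93, Igkv11-125, Igkv14-126 and Igkv2-137, with circles for female and squares for male mice. In Igkv14-126 the B cell libraries (red and orange) are at 12.5% or less at both ends and at 90.9% or more in the middle. In Igkv2-137 every value is at 53.3% or more, but it has no listed CpG within 200 bp before its start or after its end.

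The same shape appeared over the segments as a group, a description made after the data were seen. In the 200 bp before the start, 40 CpGs of 33 Igkv genes were methylated in 34.8% and 33.6% of reads in B cells and 81.4% and 81.8% in T cells. In the 200 bp after the end, 38 CpGs of 32 genes were methylated in 23.7% and 27.1% of reads in B cells and 72.8% and 70.9% in T cells. Both B cell libraries were below both T cell libraries at 32 of the 40 CpGs before the start and 33 of the 38 after the end, and above them at none. At the CpGs of the locus between the windows, both B cell libraries were below at 1248 of 12770 (9.77%) and above at 2391. Further out the difference was smaller. In the next 100 bp outward from the start the levels were still 80.4% and 73.9% in B cells against 93.6% and 89.7% in T cells. Over all CpGs more than 200 bp before the start the levels were 85.2%, 83.5%, 91.3% and 86.5%, more than 200 bp after the end they were 80.8%, 84.6%, 82.2% and 83.1%, and at the CpGs between the windows they were 88.7%, 88.4%, 87.4% and 86.8%.

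Inside the gene body the level in B cells rose towards the middle. In the first 100 bp of the Igkv genes, where the leader peptide is encoded, it was 54.5% and 58.4% in B cells against 77.1% and 78.3% in T cells. In the middle it was 79.7% and 81.8% against 83.7% and 82.9%, so that the libraries were close to each other. In the last 100 bp it was 46.2% and 44.6% against 76.9% and 81.6%.

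Pooled over their CpGs, pseudogenes had high levels in both cell types at the same places. In the 200 bp before the start, 40 CpGs of 25 pseudogenes were at 85.7% and 86.2% in B cells and 92.1% and 93.4% in T cells, and in the 200 bp after the end 41 CpGs of 26 pseudogenes were at 80.03% and 79.3% against 91.7% and 90.0%. Both B cell libraries were below both T cell libraries at 8 of these 40 and 10 of these 41 CpGs, and above them at 6 and 3, against the 9.77% below between the windows. Igkv1-136 holds 10 of these 40 CpGs and Igkv15-97 holds 9 of these 41. Before the start, the median over the 25 pseudogenes was 90.9% and 92.3% in B cells and 90.5% and 94.4% in T cells. Not all were high: for the 5 in the group of tested segments farthest from Igkj1 (2420 to 3167 kb) it was 30.4% and 47.6% against 94.7% and 95.5%. The difference between genes and pseudogenes was not tested.

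**Figure D2:**
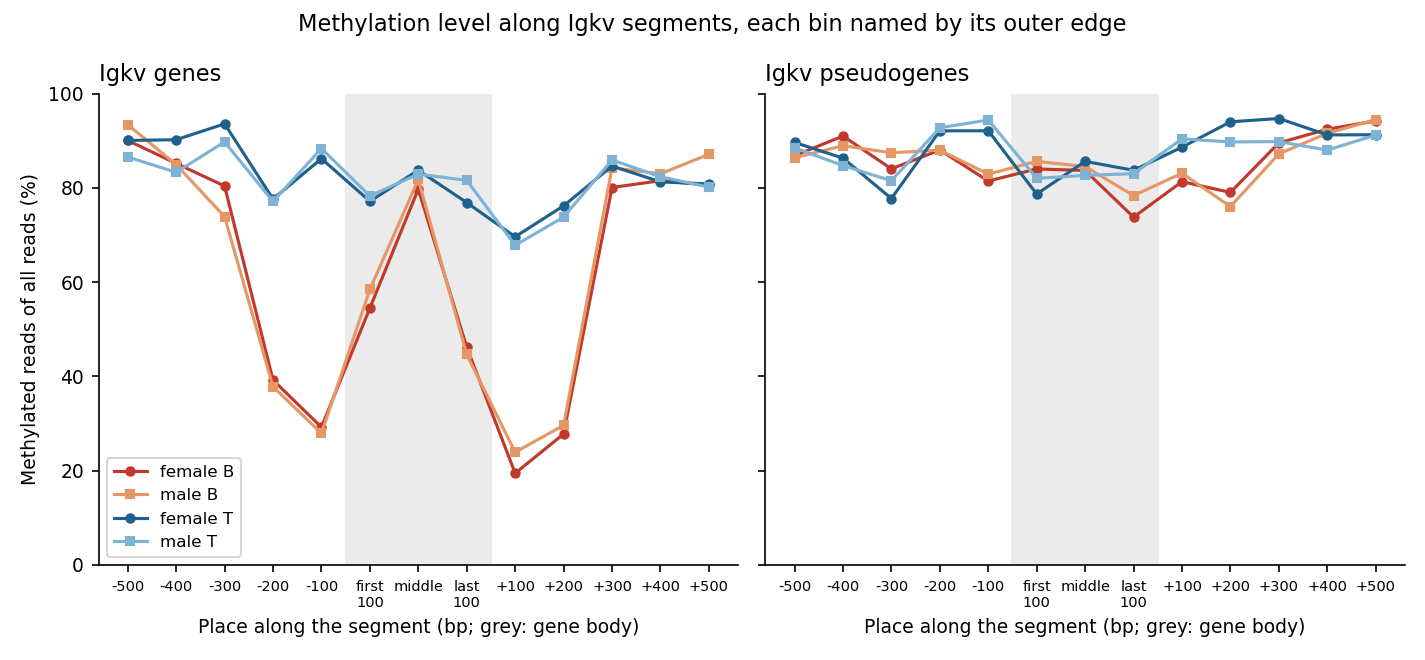
Methylated reads as a percentage of all reads in 100 bp bins before the start and after the end, and in the first 100 bp, the middle and the last 100 bp of the gene body (grey), for Igkv genes (left) and pseudogenes (right), 1 line per library. In genes the B cell lines dip to 27.9% just before the start and to 19.4% just after the end, while the T cell lines stay at 67.8% or more, and in pseudogenes all lines stay at 73.8% or more.

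A fit of the 200 bp before the start alone, over the same stretch of all genes and with at least 1 CpG, called 19 of the 58 Igkv segments that have a CpG there as lower in B cells and none as higher (16 genes and 3 pseudogenes). Over all genes 0.64% were called lower and 1.37% higher. The same fit of the 200 bp after the end called 18 of 58 lower and none higher (14 genes and 4 pseudogenes), against 0.848% and 1.67% over all genes. At an unadjusted p under 0.05, edgeR gave no segment higher in B cells at either end, and limma gave 2 before the start and none after the end. Only Igkv11-125 and Igkv14-126 were called at both ends, and 35 of the 90 segments with a CpG at either end were called at one or the other, of which 19 were also called over the whole window. Together 42 segments were called over the window or at an end. These counts rested on few reads and changed with the libraries used, for reasons not tested. Without 1 library at a time (B cells of females, T cells of females, B cells of males and T cells of males) there were 0, 2, 2 and 1 calls before the start and 3, 8, 5 and 7 after the end, and limma called 7 and 15.

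In the 200 bp before the start, the median B minus T level was -12.5 points over the 58 segments with a CpG there, -53.6 points over the 33 genes and -0.182 points over the 25 pseudogenes. The 3 segments given next had large differences over the whole window and lay beyond these medians. The 1 CpG before Igkv19-93, at position -149 in the sequence printed above, was at 0% in both B cell libraries (14 and 20 reads, which allow up to 21.4% and 15%) and at 93.3% and 100% in T cells. The 2 CpGs before Igkv14-111 (chr6:68256389-68256869, plus strand), with their reads summed, were at 11.8% and 0% in B cells and 97.3% and 100% in T cells. The 0% rests on 26 summed reads, which allow up to 11.5%. A read that covers both CpGs is counted at each, so this limit is too low. Over the whole window Igkv14-111 fell by 44.2 points. The 2 CpGs before Igkv11-125, with their reads summed, were at 25.5% and 37.5% against 88.6% and 85.7%. The B cell libraries were below the T cell libraries in each. Igkv14-111, which the naming rule does not cover, was chosen after its values were seen.

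Segments with an exact match to the octamer had the larger differences, as a description. Those counted as without it can still hold a near match, such as the ctttgcat before Igkv6-25 and Igkv8-28. Among Igkv genes with a CpG in the 200 bp before the start, the median B minus T level there was -58.8 points for the 24 with the octamer and -13.5 points for the 9 without it. Among pseudogenes it was -56.5 points for the 7 with the octamer and 2.41 points for the 18 without. Over the whole window, 20 of the 51 tested genes with the octamer were called and 2 of the 26 without it. Octamer, family and position go together: 19 of the 26 genes without the octamer and 7 of the 51 with it lie in the group of segments nearest Igkj1 (23.8 to 779 kb), and 17 of the 26 belong to families 6 and 8. In that group 1 of the 19 and none of the 7 were called, and elsewhere 1 of 7 without the octamer and 20 of 44 with it. These cannot be told apart here. For the exact heptamer, the median difference after the end was -46.2 points in the 25 genes that hold it and -50.5 points in the 7 that do not, and in pseudogenes -8.93 points in 9 and -0.0279 points in 17. For the exact nonamer it was -47.8 points in 6 genes with it and -48.4 points in 26 without, and in pseudogenes -60.7 points in 2 and -0.251 points in 24.

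The median B minus T level over the 127 segments was -3.62 points (-4.91 in females and -2.37 in males), against 1.19 points over all gene windows tested. It was -1.01 points with 1000 bp on either side and -6.44 points without male T cells. For the 77 genes it was -11.6 points and for the 50 pseudogenes 1.16 points. The level in B cells was below that in T cells at 63.0% of the segments and 29.8% of all windows. Both B cell libraries were below both T cell libraries at 58 of the 127 segments (11.9% of all windows) and above both at 19 (42.6% of all windows).

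The difference was larger away from Igkj1. Segments were ordered by the distance of their midpoint from the start of Igkj1 and cut into 4 groups of 32, 32, 32 and 31. The median B minus T level was -0.0645 points in the nearest group (23.8 to 779 kb), -3.36 points in the next (843 to 1495 kb), -10.7 points in the third (1525 to 2396 kb) and -12.02 points in the farthest (2420 to 3167 kb). The groups held 1, 6, 11 and 8 of the 26 called segments. The nearest group was thus 11.96 points less negative than the farthest, 9.40 points in females and 11.2 points in males. This fell to 7.58 points with at least 10 reads per CpG, 5.17 points over the gene body alone and 4.62 points with 1000 bp on either side.

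Over the genes alone, the medians were -0.0645, -13.9, -21.2 and -13.0 points for 26, 16, 15 and 20 segments, and for pseudogenes they were -0.125, 2.18, 2.65 and -3.28 points for 6, 16, 17 and 11 segments. At their ends the genes of the nearest group were lower in B cells too. In the 200 bp after the end the medians were -22.2, -61.1, -50.0 and -60.0 points, over 9, 6, 5 and 10 genes. In the 200 bp before the start they were -9.82, -53.6, -80.0 and -71.1 points, over 9, 7, 6 and 9 genes. In the nearest group 1 gene was called after the end and none before the start. Across segments Spearman's rho between distance and the difference was -0.461 over the 77 genes and -0.0854 over the 50 pseudogenes, a description only, as the segments share the 4 libraries and neighbours belong to the same families. The nearest group is made mostly of families 3, 6 and 8. The median difference was 3.15 points in family 3 (8 tested), -5.81 points in family 6 (9 tested) and 1.27 points in family 8 (10 tested), and 1 segment of these, in family 6, was called. In family 4, the largest with 27 tested, it was -16.4 points and 12 were called, and in family 11 it was -43.1 points and 3 of 4 were called. In family 13 none of 13 was lower in B cells (median 3.99 points). Family and distance cannot be told apart here.

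**Figure D3:**
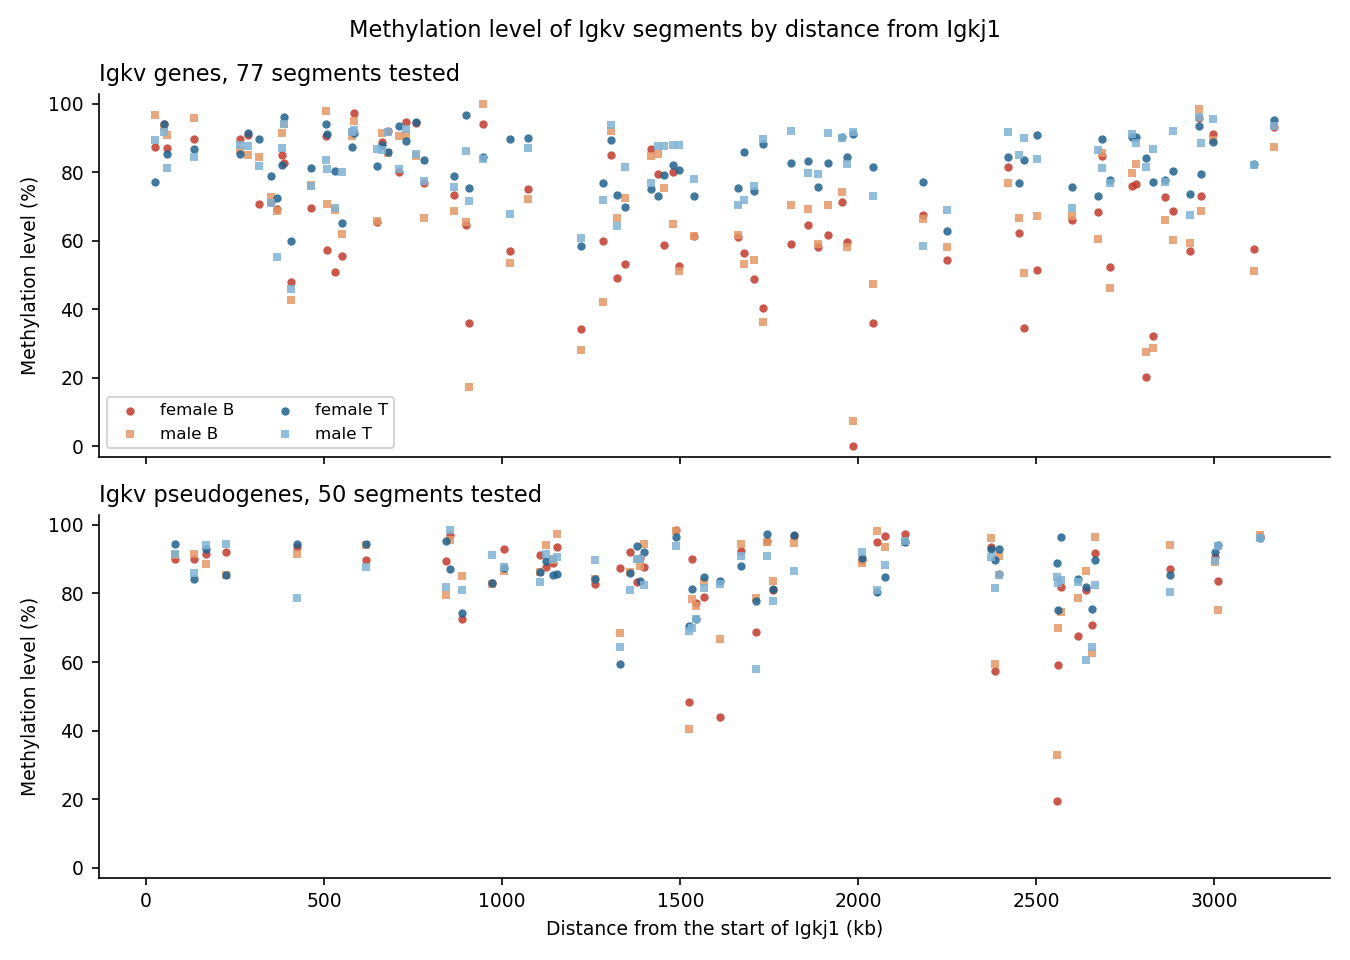
Methylation level (%) of each tested segment in each library by distance from the start of Igkj1 (kb), for 77 Igkv genes (top) and 50 pseudogenes (bottom). Within 779 kb of Igkj1 the B and T cell points overlap at most segments, and farther out the B cell points of many genes fall below the T cell points, down to 0% and 7.41% at Igkv19-93.

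At the end of the locus next to Igkj1 the segments named by position were highly methylated. The 6 tested segments nearest Igkj1 were Igkv3-2, Igkv3-4, Igkv3-5, Igkv3-6, Igkv3-8 and Igkv3-9, at 23.8 to 134 kb, with levels from 87.2% to 96.8% in the B cell libraries and from 77.1% to 94.5% in the T cell libraries. Their differences lay between -2.43 and 8.83 points and none was called (edgeR, smallest adjusted p = 0.21). The windows of Igkv3-8 and Igkv3-9 overlap and share CpGs. Igkv3-2 (chr6:70698449-70699067), Igkv3-4 and Igkv3-5 hold the octamer but have no listed CpG in the 200 bp before the start or after the end. Their levels thus rest on CpGs elsewhere.

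At the far end, Igkv2-137 was at 93.3%, 87.4%, 95.3% and 93.5% (-4.08 points, edgeR adjusted p = 0.25), and the pseudogene Igkv1-136 was at 96.9%, 97.0%, 96.2% and 96.1%, one of the 2 highest mean levels. The other of the highest, the pseudogene Igkv13-71-1, does not lie at the far end but 1487 kb from Igkj1, and was at 98.6%, 98.2%, 96.5% and 93.8%. Igkv1-135, the next after Igkv1-136 from the far end, was at 57.5% and 51.1% in B cells against 82.4% and 82.2% in T cells (-27.97 points, edgeR adjusted p = 0.0015). The pseudogene Igkv14-134-1 was at 83.8% and 75.3% against 94.2% and 94.0%, a difference of -14.6 points (edgeR adjusted p = 0.0051), short of the 20 points required over the whole window. Its 1 CpG in the 200 bp before the start was at 0% (13 reads, which allow up to 23.1%) and 5.88% (17 reads) in B cells. In T cells it was at 90.5% and 100%, and the fit of that stretch alone called it lower in B cells. Highly methylated and partly unmethylated segments thus stood side by side. Igkv2-137, however, has no listed CpG in the 200 bp before its start or after its end, so that its level rests on CpGs elsewhere. Away from the far end, Igkv4-58, the lowest in mean level, was at 34.3% and 28.1% in B cells and also low in T cells, at 58.4% and 60.7% (-28.3 points, edgeR adjusted p = 0.00019).

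Segments on the strand of the joining segments and on the other strand were both among those called, with 11 of 58 and 15 of 69. The test of the difference between the sexes in B minus T level called 0 of 127 segments in edgeR and in limma (0% of all windows in edgeR), with an unadjusted p under 0.05 at 3 segments in edgeR and 25 in limma. With 1 residual degree of freedom and an adjusted p of 1.00 at each segment in edgeR, this does not show that the sexes were alike. Igkv4-62 had a B minus T level of -24.3 points in females against 2.38 in males, and Igkv13-62-1 one of 27.98 against 4.05, both named after their values were seen.

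The joining segments themselves were lower in B cells in every case. Igkj1 (chr6:70722562-70722599) was at 35.6% and 30.4% in B cells and 92.5% and 93.9% in T cells (-60.2 points, edgeR adjusted p = 2e-08), and Igkj2 at 32.7% and 22.2% against 92.6% and 94.7%. The differences were -30.6 points at Igkj3, -30.1 points at Igkj4, -30.0 points at Igkj5 and -24.1 points at Igkc, and all 6 were called. The windows of the 5 joining segments overlap in a chain and share CpGs, so that these calls and those in depth are not separate observations.

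Read depth of the Igkv segments was close in B and T cells and a little below the genome's median window in each library. Relative depth is the reads per CpG of a window over the median of that value over all tested autosomal windows of the library. In bulk libraries, fewer copies of a stretch and fewer reads from each copy cannot be told apart. The median relative depth of the segments was 0.84 and 0.884 in B cells and 0.845 and 0.908 in T cells, and the median B to T ratio was 0.970 (0.958 in females and 0.996 in males). The ratio was above 1 without female B cells (1.011) and without male T cells (1.005). The ratio lay between 0.8 and 1.2 at 109 of the 127 segments. In relative depth both B cell libraries were below both T cell libraries at 25 segments (20.2% of autosomal windows) and above both at 15 (21.9%).

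One segment was called lower in B cells in read depth (edgeR quasi-likelihood test on reads, Benjamini-Hochberg over 49524 autosomal windows) and none higher, against 1.04% and 0.895% of all windows. At an unadjusted p under 0.05 there were 5 segments in edgeR, 1 of them higher in B cells, and none either way in DESeq2. The called segment was Igkv8-28 (chr6:70143593-70144166, minus strand, 579 kb from Igkj1), with a relative depth of 0.933 and 0.977 in B cells and 1.78 and 1.83 in T cells, a ratio of 0.529 (edgeR adjusted p = 0.038). Its B cell values were close to 1 and its T cell values were high. DESeq2 did not call it, nor did the fit without any 1 library, and it has a copy at 96.5% identity.

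The next lowest ratios were 0.645 at Igkv17-121, 0.655 at the pseudogene Igkv4-77 and 0.659 at the pseudogene Igkv5-40-1, with adjusted p in edgeR of 0.25, 0.21 and 0.44. The highest were 1.93 at the pseudogene Igkv13-54-1 (adjusted p = 0.090), 1.31 at Igkv1-131, 1.31 at the pseudogene Igkv12-40 and 1.26 at Igkv6-23, with adjusted p in edgeR of 0.40, 0.52 and 0.47 for the last 3. Igkv13-54-1 had 22 and 30 reads in T cells and 46 and 44 in B cells. At Igkv17-121 and Igkv5-40-1 the ratio rested on male T cells, with relative depths of 0.714 and 0.575 in female T cells against 1.21 and 1.17 in male T cells.

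By position the ratio was a little lower near Igkj1. Its median was 0.901 in the nearest group, 0.961 in the next, 0.999 in the third and 0.987 in the farthest, a difference of -0.0857 between the nearest and the farthest. The sexes differed in sign, with -0.0603 in females and 0.0132 in males, so this difference did not hold in both. In 100 kb bins that use every CpG listed in all libraries, the ratio lay between 0.868 and 1.03 over the 32 bins from the far end of the Igkv segments to Igkj1 and was lowest in the bin next to Igkj1. In females alone that bin, at 0.840, was second to one of 0.810 at -1800 to -1700 kb from Igkj1, and in males it was the lowest, at 0.897. The bin from Igkj1 to 100 kb past it, which holds the joining segments and Igkc, was at 0.937 (0.909 in females and 0.964 in males). In 10 kb bins the ratio was 0.723 from 0 to 10 kb past the start of Igkj1. It was still 0.840, 0.807, 0.901, 0.944 and 0.895 in the next bins, up to 60 kb. In the 9 bins of 100 kb farther out on either side it lay between 0.993 and 1.103.

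The drop in depth became larger at the joining segments. The ratio was 0.539 at Igkj1, 0.515 at Igkj2, 0.660 at Igkj3, 0.611 at Igkj4, 0.683 at Igkj5 and 0.753 at Igkc, and Igkj1, Igkj2 and Igkj4 were called lower in B cells (edgeR adjusted p = 0.033, 0.031 and 0.037). At Igkj1 the relative depth was 0.413 and 0.488 in B cells and 0.744 and 0.929 in T cells. Segments on the strand of the joining segments had a median ratio of 0.976 and those on the other strand one of 0.951.

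**Figure D4:**
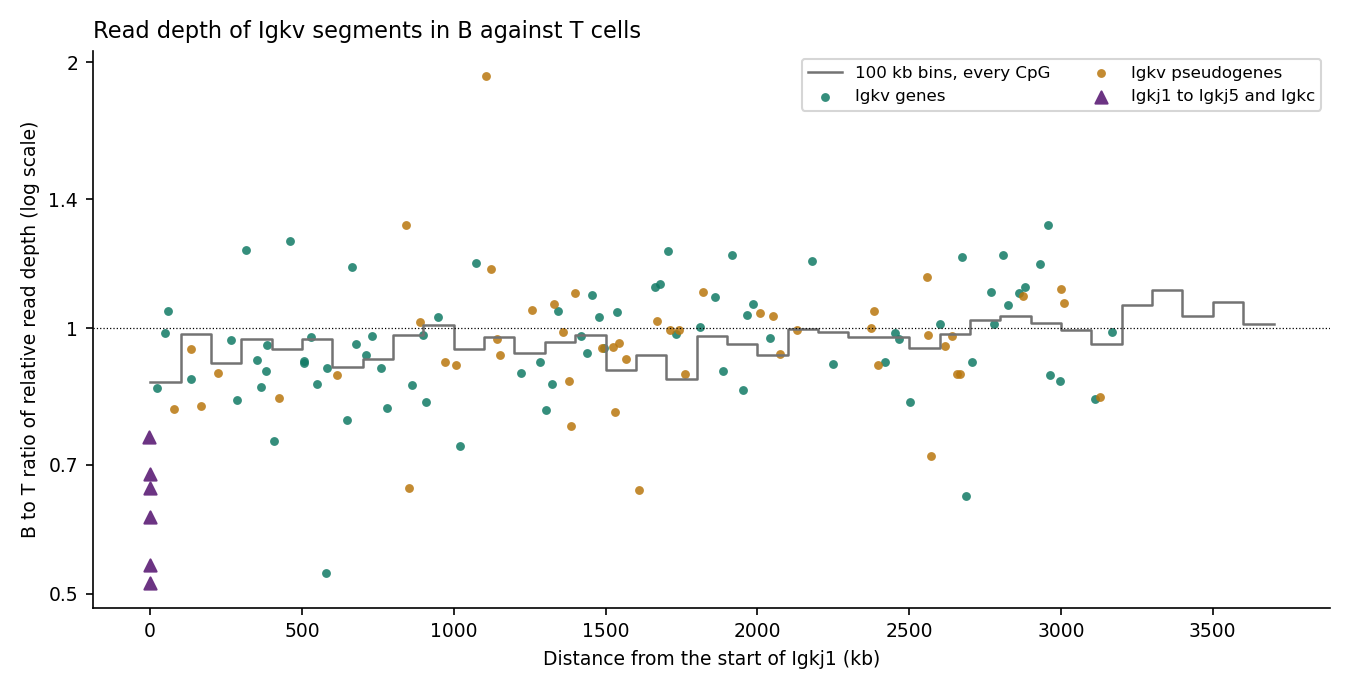
B to T ratio of relative read depth (log scale) by distance from the start of Igkj1 (kb), for 77 Igkv genes, 50 pseudogenes, Igkj1 to Igkj5 with Igkc, and 100 kb bins over every CpG (grey line). Most segments lie between 0.8 and 1.2, whereas the joining segments and Igkc, at the left edge, lie between 0.515 and 0.753.

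Other variable segments gave a different picture in depth. The median ratio was 0.716 over 136 tested Ighv segments (heavy chain, chromosome 12), 1.55 over 29 Trbv segments (T cell receptor beta, chromosome 6) and 1.47 over 71 Trav segments (T cell receptor alpha, chromosome 14), and 32 Ighv segments were called lower in B cells while 11 Trbv and 25 Trav segments were called higher. In level, 4 Ighv segments were called lower and 10 higher, 15 Trbv segments and 38 Trav segments were called higher, and 1 Trav segment was called lower. The lambda light chain genes (Iglv, Iglj and Iglc, chromosome 16) had a median difference of -31.3 points, 7 of 10 called lower and a median depth ratio of 0.938. Among the 27 genes within 500 kb outside the kappa locus, the median difference was 1.43 points, 1 was called lower, and the median depth ratio was 1.00. None of these lists was tested against the Igkv segments.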

How the data were processed

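DNA methylation was measured by WGoxBS in 4 libraries, 1 per sex and cell type. The authors aligned and called reads with Bismark (version 0.13.1 in the submitters' processing notes) on mm10 and deposited, per CpG, the methylated fraction (0 to 1) and the read count, listing CpGs with at least 5 reads. Methylated reads were recovered from the fraction and the count at 100% of CpGs, and 353550700, 279600268, 349605803 and 340296907 reads at autosomal and X CpGs were used for female B, male B, female T and male T cells. These totals count a read once at each CpG it covers. Each file is given for both samples of its group but carries the number of 1 of them, and whether it holds reads of the other is not given in the sources used here.

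Levels and reads were summed over gene windows (body with 500 bp on either side, at least 3 CpGs in all files and 20 reads per library). Levels and depth were tested with edgeR 4.0.16 (quasi-likelihood, cell type and sex as terms, TMM for depth, R 4.3.3). The difference between the sexes in B minus T level was tested with the interaction of cell type and sex in place of the sex term. The alternatives were limma 3.58.1, DESeq2 1.42.0, other windows and filters, and leaving out each library. Copies were sought with blastn 2.17.0. With 1 library per group, 1 residual degree of freedom was left per window, so the spread came mostly from all windows together, and p-values measure the spread between libraries, which may be technical. The fits were also run on simulated data for windows of all genes, with a smaller minimum difference. Those runs give no separate result for windows as poor in CpGs as these or for the 200 bp at either end.

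The members and lists were chosen with earlier results of these data known, and the fits of the 200 bp at either end were added after the data were seen. With all 4 libraries, edgeR estimated a single spread for all windows in those fits. With 1 library left out, it let the spread vary between windows. Segments were named if they were among the 6 nearest or 4 farthest from Igkj1, the 5 called with the largest difference in each direction, the 4 lowest or highest in depth ratio, or the 2 lowest or highest in mean level. RefSeq promoter tables held no Igkv entry, so sequences were read from the GRCm38 genome.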

Additional observations from a re-analysis of the deposited data

How the results depend on the processing

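Against 26 segments called lower in B cells, 13 were called with at least 10 reads per CpG (69 segments tested), 9 over the gene body alone (48 tested), 16 with 1000 bp on either side, 13 with at least 5 CpGs (68 tested), 17 without near-identical copies, 0 with limma, and 14 to 21 with 1 library left out. The 1 segment called in depth became 0 over the body alone, with at least 5 CpGs, with DESeq2, without copies and without any 1 library, and 2 with 1000 bp. Leaving out near-identical copies took away 45 of the 127 tested segments, 9 of the 26 called ones among them. The median B minus T level of -3.62 points became -1.01 with 1000 bp, -5.50 without copies and -6.44 to -3.07 with 1 library left out. The median depth ratio of 0.970 became 0.924 over the body alone and 0.908 to 1.01 with 1 library left out, above 1 without female B cells (1.011) and without male T cells (1.005). The nearest against the farthest group gave 7.58 points with at least 10 reads, 10.6 with every CpG, 5.17 over the body, 4.62 with 1000 bp, 8.12 with at least 5 CpGs and 8.16 to 11.96 with 1 library left out, in place of 11.96. In depth it gave -0.172 with at least 10 reads, -0.0236 over the body, -0.135 without copies and -0.117 to -0.0423 with 1 library left out, in place of -0.0857. The 19 calls before the start became 7 with limma and 0 to 2 with 1 library left out, and the 18 after the end 15 and 3 to 8. The cause of these changes was not tested, beyond the fewer segments or libraries that the settings leave. Apart from the depth ratio, whose side of 1 changed, and the depth difference by distance, whose sign differed between the sexes, these values kept their sign. No paired analysis was possible because the groups share no replicate number in the labels; the fits already hold sex as a term.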
